A study of Mus musculus with 12 samples.

Results

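The genes described are 37 listed members of the lysosome and of autophagy, chosen by function as 8 proteases, 8 glycosidases, 7 lipid and sulfate hydrolases with their cofactors, 7 membrane proteins, 4 proton pump genes and 3 autophagy genes. Of these, 36 were measured among 12255 genes on the arrays, and Cd63 was not analysed here. The choice was made with earlier results of these data known, so counts of members beside all genes are descriptions. RNA came from mouse αTC1 cells (alpha cells, a glucagon-producing islet tumour line) and βTC3 cells (beta cells, an insulin-producing islet tumour line), both established from tumours driven by SV40 large T antigen. Each line received for 5 days either 3.3 µM GW8510, which the study describes as a putative CDK2 inhibitor, in 0.1% DMSO, or 0.1% DMSO as vehicle. This gave 4 groups of 3 biological replicates, and the question of the series was which genes respond to the compound in each line. Each cell type is thus represented by 1 tumour-derived line. Each array read bulk RNA of a culture, so more RNA per cell and more cells with the RNA cannot be told apart.

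Lysosomes are acidic compartments in which hydrolases break down proteins, sugar chains and lipids that arrive by endocytosis or autophagy. The vacuolar proton pump acidifies the lumen, heavily glycosylated membrane proteins line it, and transporters and channels release the products. Many of these genes carry E-box-like motifs near their start that are bound by TFEB and related factors, and islet cells use lysosomes to degrade surplus hormone granules.

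The values are array intensities on a linear scale with a floor at 20 and a ceiling at 20000, and each gene was read from its brightest probe set. GW8510 was compared with DMSO within each line by limma, with Benjamini-Hochberg adjustment over all 12255 genes and a threshold of 0.05. The median array intensity lay between 173.7 and 182.0 on 11 arrays and at 199.9 on beta GW8510 replicate 3. Without that array, 25 members were higher and 1 lower in beta cells, as with it. Among all 12255 genes, 1948 were then higher and 2005 lower in beta cells, against 2417 and 1757 with it. The hormone genes matched the line labels, with Gcg at 20000 in alpha cells and 6420 in beta cells, and Ins2 at 20000 in beta cells and 96.8 in alpha cells, all as means of the DMSO arrays. Of the other alpha cell markers measured, Irx1, Irx2 and Slc7a2 were higher in alpha cells with DMSO. Ttr went the other way, at 8351 in alpha cells and 20000 in beta cells. All beta cell markers measured were lower in alpha cells. The ratio of the 3′ to the 5′ probe set of the pyruvate carboxylase control, a sign of RNA and labelling quality, was 5.15 to 5.55 in alpha DMSO, 4.15 to 4.64 in alpha GW8510, 4.11 to 4.84 in beta DMSO and 3.09 to 3.30 in beta GW8510. It was lower with GW8510 in both lines, and its part in the responses was not tested.

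In alpha cells, 24 of the 36 measured members were higher with GW8510, 4 were lower and 8 did not pass the test. Among all genes, 20.2% were higher and 21.2% lower. The members' median log2 fold change was 0.38, against 0.03 over all genes. The test and a 2-fold rise were passed by 6 members, namely Cd68, Man2b1, Gla, Ctsb, Lipa and Ctsd, while 2.61% of all genes did. The 4 that fell were the glycosidases Glb1 and Naglu, the cholesterol exporter Npc1 and the autophagy gene Gabarapl1. The treated arrays lay entirely above the DMSO arrays for 27 members and entirely below for 4, against 26.0% and 25.5% of all genes.

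In beta cells, 25 members were higher, 1 was lower and 10 did not pass, where 19.7% of all genes were higher and 14.3% lower. The median log2 fold change of the members was 0.44, against 0.07 over all genes. Only Neu1 and Gla rose at least 2-fold, compared with 1.20% of all genes, and Scarb2 was the member that fell. The arrays of the groups lay entirely apart for 27 members with the higher values under GW8510 and for 2 with the lower (28.4% and 17.6% of all genes). The median was thus close to that in alpha cells, while fewer members rose 2-fold.

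**Figure D1:**
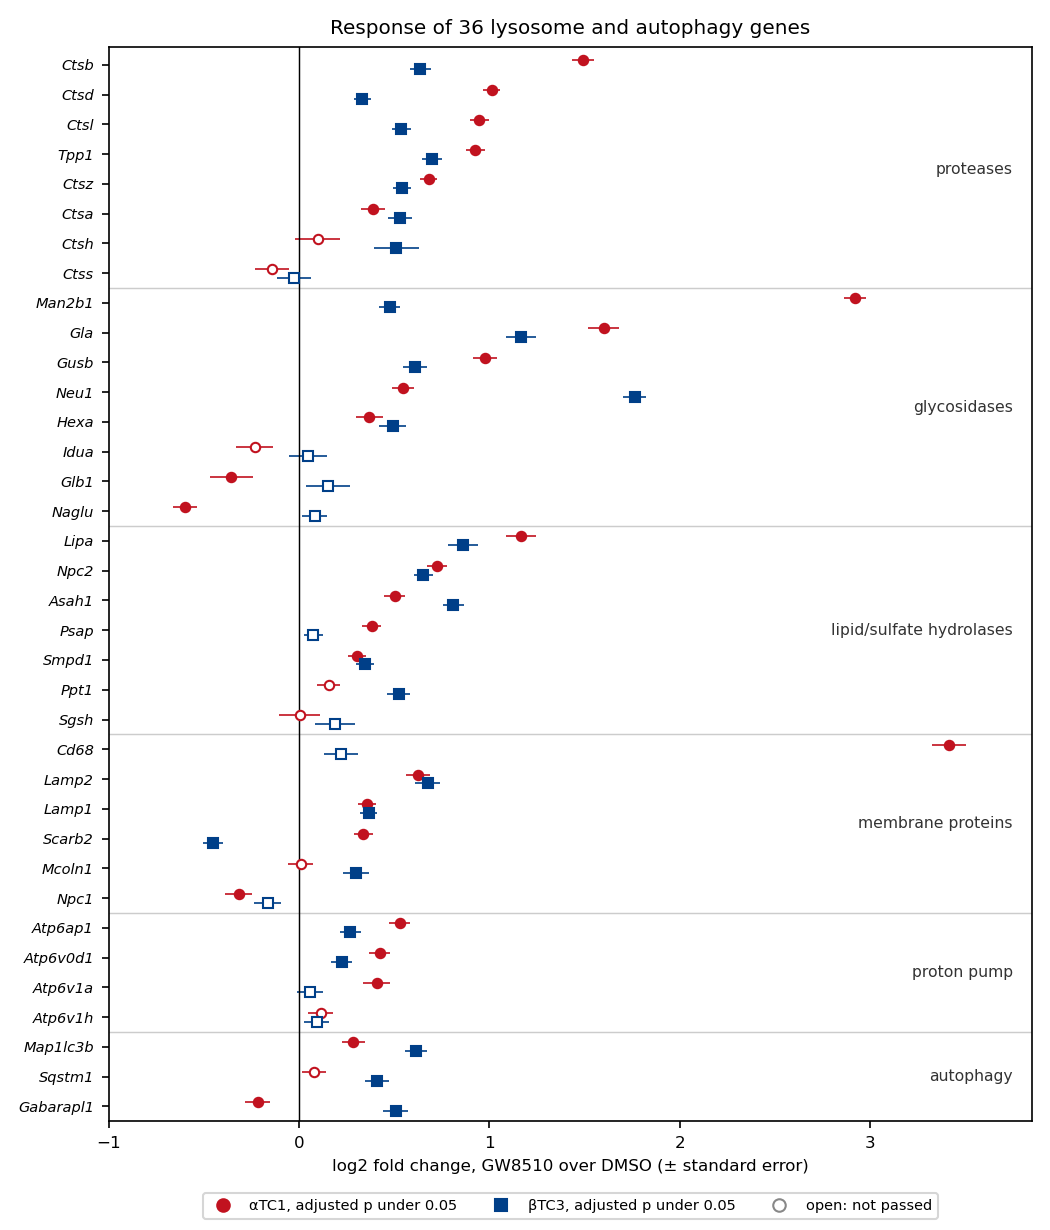
Log2 fold change of GW8510 over DMSO with its standard error for the 36 measured members, by class, in αTC1 (red circles) and βTC3 (blue squares), with filled symbols at an adjusted p under 0.05. Most symbols lie right of 0 in both lines, Cd68 at 3.41 and Man2b1 at 2.92 stand far out in αTC1 only, and Neu1 at 1.76 is the largest value in βTC3.

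The proteases, which digest proteins in the lumen, rose in both lines. Of 8, 6 were higher in alpha cells and 7 in beta cells, with median log2 fold changes of 0.80 and 0.53. The 6 that rose in both were Ctsa, Ctsb, Ctsd, Ctsl, Ctsz and Tpp1. Ctsb encodes the cysteine protease cathepsin B. In alpha cells its intensity was 1367, 1377 and 1535 with DMSO and 4044, 4016 and 3975 with GW8510, and in beta cells 5206, 5016 and 5024 with DMSO and 7554, 8046 and 8142 with GW8510. The groups did not overlap in either line, and the treated alpha arrays still lay below the untreated beta arrays. The log2 fold change was 1.49 ± 0.06 (standard error) in alpha cells (limma, adjusted p = 2.2e-09) and 0.64 ± 0.06 in beta cells (adjusted p = 6.3e-06). Its other probe sets gave 1.58, 0.91 and 0.44 in alpha cells and 0.71, 0.53 and 0.27 in beta cells, the smaller values from the dimmer ones.

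Ctsd, the aspartic protease cathepsin D, read 2278, 2297 and 2249 with DMSO and 4542, 4552 and 4678 with GW8510 in alpha cells. In beta cells it read 3131, 3156 and 3082 with DMSO and 3873, 3987 and 3939 with GW8510. The treated alpha arrays thus passed all beta arrays, although alpha cells had been lower with DMSO. The log2 fold changes were 1.01 ± 0.04 and 0.33 ± 0.04, with adjusted p-values of 6.2e-09 and 0.00012 by limma. Ctsl, cathepsin L, and Tpp1, which removes tripeptides from the ends of proteins, had log2 fold changes of 0.95 and 0.93 in alpha cells and of 0.54 and 0.70 in beta cells. Ctsz (0.68 in alpha cells, 0.54 in beta cells) and Ctsa, the protective protein of the complex that holds sialidase and beta-galactosidase (0.39 and 0.53), changed less. Ctsh was dim, at 47.5 to 82.3, and was higher in beta cells only (log2 fold change 0.51, adjusted p = 0.0048 by limma). Ctss, a cathepsin of antigen-presenting cells, lay between 20 and 26.5 on all 12 arrays, at or next to the floor, so its change could not be read.

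The glycosidases trim sugar chains. Of 8, 5 rose in both lines (Gla, Gusb, Hexa, Man2b1 and Neu1), Glb1 and Naglu fell in alpha cells, and Idua passed in neither. The class medians were 0.46 in alpha cells and 0.48 in beta cells, and log2 fold changes ran from -0.60 to 2.92 and from 0.05 to 1.76. Man2b1, the lysosomal alpha-mannosidase, read 452, 427 and 435 with DMSO and 3343, 3330 and 3285 with GW8510 in alpha cells. In beta cells it read 1523, 1491 and 1557 with DMSO and 2074, 2008 and 2286 with GW8510. By the probe set used, alpha cells went from the lowest of the 4 groups to the highest. The rise was 7.58-fold in alpha cells (log2 2.92 ± 0.06, limma adjusted p = 1.3e-11) and 1.39-fold in beta cells (log2 0.48 ± 0.06, adjusted p = 5.1e-05).

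Man2b1 has another, dimmer probe set with a mean of 96.6 over the arrays, and it gave log2 fold changes of 0.85 in alpha cells and 0.11 in beta cells. The direction was shared, the size was not, and by that probe set the change in beta cells did not pass.

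Gla, alpha-galactosidase A, removes galactose from glycolipids. Its intensity was 147, 141 and 128 with DMSO and 375, 437 and 451 with GW8510 in alpha cells, and 1095, 1077 and 1065 with DMSO and 2426, 2277 and 2574 with GW8510 in beta cells. It was the only member that rose at least 2-fold in both lines, by 3.03-fold (limma, adjusted p = 1.8e-08) and 2.25-fold (adjusted p = 8.5e-07). Its other, dimmer probe set gave log2 fold changes of 0.40 and 0.60, and the mean of both gave 1.00 and 0.88. The rise was thus under 2-fold in both lines by the dimmer probe set, and in beta cells by the mean. Neu1, the lysosomal sialidase, read 734, 672 and 672 with DMSO and 964, 997 and 1072 with GW8510 in alpha cells. In beta cells it read 584, 544 and 565 with DMSO and 1901, 1908 and 1934 with GW8510. Neu1 went the other way from Man2b1, with the larger rise in beta cells at 3.39-fold (limma, adjusted p = 3.6e-09) against 1.46-fold in alpha cells (adjusted p = 1.1e-05). That order belongs to 1 of 3 Neu1 probe sets, since the others gave 0.78 and 0.18 in alpha cells and 0.54 and 0.05 in beta cells.

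Gusb, beta-glucuronidase, had log2 fold changes of 0.98 and 0.61, and Hexa, a subunit of beta-hexosaminidase, of 0.37 and 0.49. Against these, Naglu, which acts in heparan sulfate breakdown, fell by 0.60 on the log2 scale in alpha cells (limma, adjusted p = 1.1e-05), and Glb1, beta-galactosidase, fell by 0.36 (adjusted p = 0.025). In beta cells the values of Naglu and Glb1 were 0.08 and 0.15, which did not pass. Glb1 lost its call in alpha cells without alpha DMSO replicate 1 (-0.31), alpha DMSO replicate 3 (-0.37) or alpha GW8510 replicate 1 (-0.21), and also when only the 6 alpha arrays were fitted (-0.36).

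Of 7 hydrolases of lipids and sulfates and their cofactors, 5 rose in each line and all 7 had values above 0 in both, with median log2 fold changes of 0.38 and 0.52. Asah1, Lipa, Npc2 and Smpd1 rose in both, Psap in alpha cells and Ppt1 in beta cells, and Sgsh passed in neither. Lipa, lysosomal acid lipase, frees cholesterol and fatty acids. It read 242, 262 and 248 with DMSO and 530, 607 and 551 with GW8510 in alpha cells, and 318, 355 and 359 with DMSO and 648, 664 and 564 with GW8510 in beta cells. The groups did not overlap in either line, and the rise was 2.24-fold (limma, adjusted p = 2.3e-07) and 1.82-fold (adjusted p = 7.6e-06). Npc2, which hands cholesterol to the membrane protein encoded by Npc1, had log2 fold changes of 0.73 and 0.65. Asah1, acid ceramidase, had values of 0.50 and 0.81, and Smpd1, acid sphingomyelinase, of 0.30 and 0.35. Psap encodes the precursor of the saposins, which help these enzymes reach their lipids, and had 0.38 in alpha cells and 0.07 in beta cells, where it did not pass. For Ppt1, a palmitoyl-protein thioesterase, the order was the reverse, with 0.16, which did not pass, and 0.52.

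Among 6 measured membrane proteins, Cd68, Lamp1, Lamp2 and Scarb2 rose and Npc1 fell in alpha cells, and Lamp1, Lamp2 and Mcoln1 rose and Scarb2 fell in beta cells. Cd68, a glycoprotein of the lysosomal membrane best known from macrophages, had the largest change of any member. Its intensity was 66.8, 55.9 and 62.0 with DMSO and 654, 612 and 698 with GW8510 in alpha cells, and 36.8, 38.1 and 40.5 with DMSO and 43.0, 41.7 and 50.5 with GW8510 in beta cells. The rise in alpha cells was 10.6-fold (log2 3.41 ± 0.09, limma adjusted p = 1.0e-10), and the log2 fold change in beta cells was 0.22 ± 0.09 (adjusted p = 0.076). None of 14 other macrophage markers measured was higher in alpha cells by limma's adjusted p (C1qb had an unadjusted p of 0.033), and C1qa was lower (from 306 to 84.4). Their summed intensity was 929 to 983 on the alpha DMSO arrays and 704 to 890 on the alpha GW8510 arrays, and without C1qa 631 to 670 and 639 to 783, so the fall of the sum was that of C1qa. Ptprc was at the floor on the 3 alpha DMSO arrays and on 2 of the 3 alpha GW8510 arrays, and Cybb stayed at or below 24.9.

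Lamp1 and Lamp2, the main glycoproteins of the lysosomal membrane, had log2 fold changes of 0.36 and 0.63 in alpha cells and 0.37 and 0.68 in beta cells. The difference between lines was -0.01 ± 0.07 for Lamp1 and -0.05 ± 0.09 for Lamp2. Of the 3 other probe sets of Lamp2, 2 gave a larger rise in alpha cells that passed, with differences of 0.32 (limma, adjusted p = 0.0049) and 0.53 (adjusted p = 0.024). Scarb2, the receptor that brings glucocerebrosidase to lysosomes, read 1656, 1691 and 1593 with DMSO and 2169, 1998 and 2082 with GW8510 in alpha cells. In beta cells it read 1807, 1730 and 1745 with DMSO and 1312, 1262 and 1286 with GW8510. By this probe set it rose in alpha cells (0.34, limma adjusted p = 0.00017) and fell in beta cells (-0.45, adjusted p = 3.4e-05). Another probe set of nearly the same mean intensity gave 1.06 in alpha cells and 0.45 in beta cells, so the direction in beta cells depended on the probe set. Mcoln1, a calcium channel of the lysosome, had 0.01 in alpha cells and 0.30 in beta cells (adjusted p = 0.0042), and Npc1 had -0.32 (adjusted p = 0.0035) and -0.16 (adjusted p = 0.10).

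The proton pump genes rose by small steps, 3 of 4 in alpha cells and 2 in beta cells, with median log2 fold changes of 0.42 and 0.16. Atp6ap1, an accessory subunit of the pump, changed most. It read 3535, 3668 and 3606 with DMSO and 5333, 5092 and 5180 with GW8510 in alpha cells, and 6006, 6166 and 6381 with DMSO and 7932, 7341 and 7100 with GW8510 in beta cells. The groups did not overlap, and the log2 fold changes were 0.53 ± 0.05 (limma, adjusted p = 7.7e-06) and 0.27 ± 0.05 (adjusted p = 0.0024). Atp6v0d1 of the membrane sector had 0.42 and 0.23, and Atp6v1a, the catalytic subunit, had 0.41 in alpha cells and 0.06 in beta cells, where it did not pass. Atp6v1h, a regulatory subunit, passed in neither line (0.11 and 0.09).

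The 3 autophagy genes all rose in beta cells and were split in alpha cells, with medians of 0.51 and 0.08. The median in alpha cells turned to -0.086 when the probe sets of a gene were averaged. Gabarapl1, a ubiquitin-like protein of the autophagosome membrane, read 1860, 1811 and 1680 with DMSO and 1580, 1564 and 1460 with GW8510 in alpha cells. In beta cells it read 1362, 1276 and 1390 with DMSO and 1878, 1810 and 2048 with GW8510. It fell in alpha cells (-0.22, limma adjusted p = 0.019) and rose in beta cells (0.51, adjusted p = 9.7e-05), and its other probe set moved the same way in each line, with -0.56 and 0.46. The fall in alpha cells no longer passed without alpha DMSO replicate 1 (-0.19), alpha DMSO replicate 2 (-0.21) or alpha GW8510 replicate 3 (-0.18).

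Map1lc3b, the LC3 protein that marks autophagosomes, read 3043, 3258 and 2983 with DMSO and 3775, 3917 and 3620 with GW8510 in alpha cells. In beta cells it read 3573, 3665 and 3497 with DMSO and 5397, 5237 and 5829 with GW8510. The log2 fold changes were 0.29 (limma, adjusted p = 0.0019) and 0.62 (adjusted p = 1.1e-05). Its 3 other probe sets gave -0.41 to -0.08 in alpha cells and -0.09 to 0.56 in beta cells, so its rise in alpha cells was seen in 1 probe set of 4. Sqstm1, a receptor that delivers cargo to autophagosomes, had 0.08 in alpha cells, which did not pass, and 0.41 in beta cells (adjusted p = 0.00031).

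**Figure D2:**
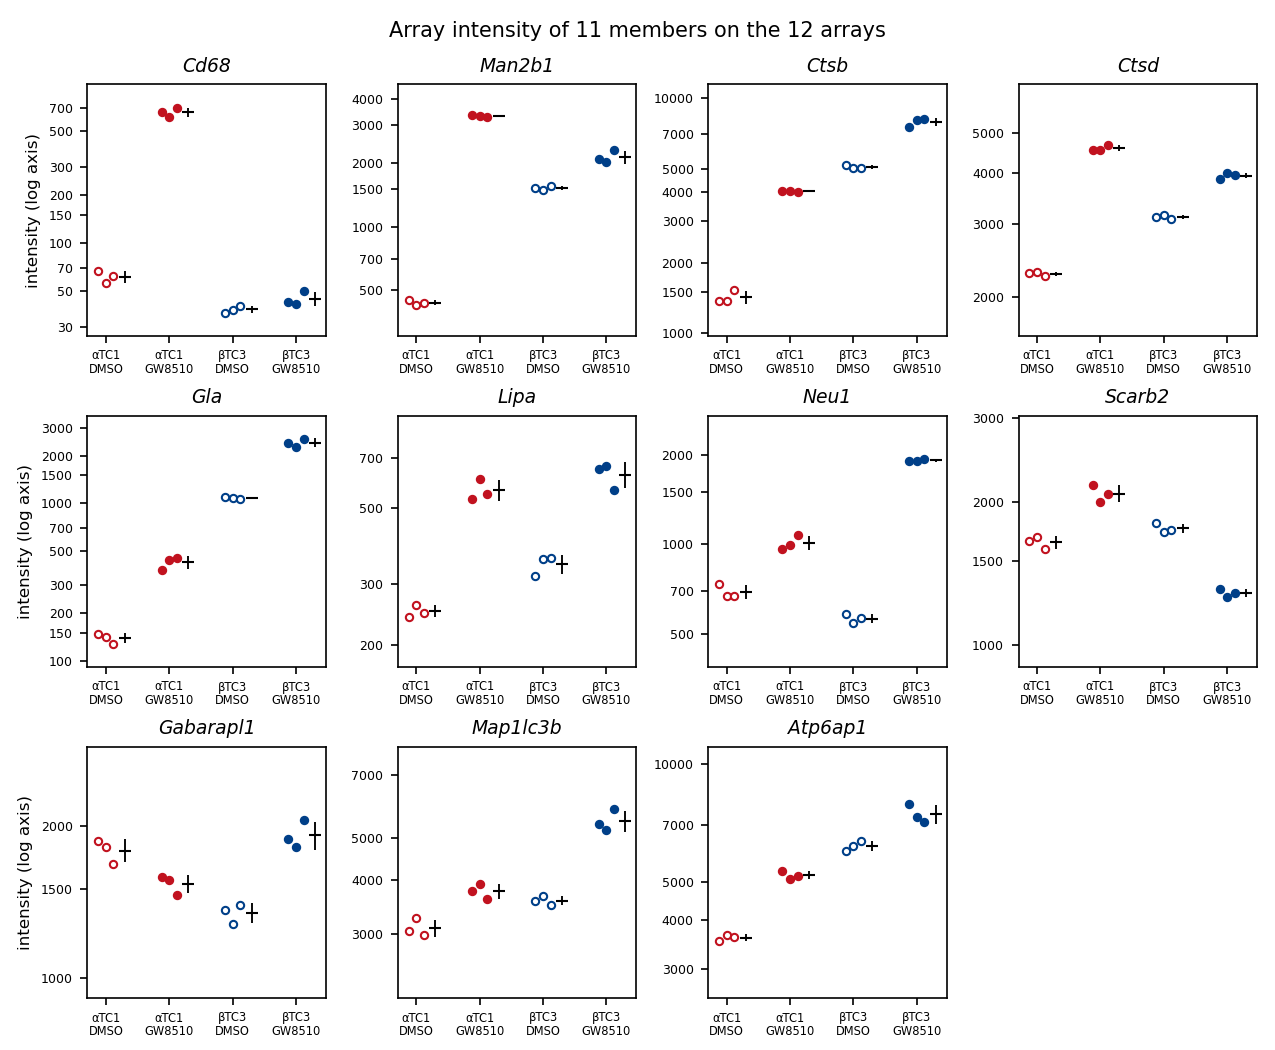
Array intensity (log axis, a different range in each panel) of 11 members on the 12 arrays, with open circles for DMSO, filled circles for GW8510, red for αTC1 and blue for βTC3, and the mean ± SD (n = 3) beside each group. Cd68 in αTC1 goes from 55.9 to 66.8 with DMSO to 612 to 698 with GW8510, while Gabarapl1 and Scarb2 move in opposite directions in the lines.

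Several members have E-box motifs close to their start, in the 300-base promoter windows of RefSeq on GRCm38.p6 (250 bases before to 50 after the start), where 32 of the 37 listed genes had an entry. CACGTG, which reads the same on both strands, was present in 11 of these 32 (34.4%), against 1064 of 9783 genes of the arrays with an entry (10.9%). The longer TCACGTGA, which contains it and also reads the same on both strands, was present in 6 of the 32 (18.8%), against 1.76% of the array genes. The windows shown are those of the 6 members with the longer motif and of Lamp1, which has CACGTG 4 times, shown because they are the starts with the longest or most frequent match. Each is written 5′ to 3′ on the gene's strand, in lower case with the motif in capitals.
Ctsa, chr2:164833736-164833786, plus strand: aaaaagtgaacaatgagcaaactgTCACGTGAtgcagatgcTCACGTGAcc
Ctsd, chr7:142387895-142387950, minus strand: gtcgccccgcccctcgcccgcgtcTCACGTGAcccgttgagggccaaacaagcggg
Gla, chrX:134601169-134601255, minus strand: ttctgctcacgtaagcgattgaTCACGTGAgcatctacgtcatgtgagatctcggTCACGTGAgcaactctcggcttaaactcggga
Lamp1, chr8:13159076-13159174, plus strand: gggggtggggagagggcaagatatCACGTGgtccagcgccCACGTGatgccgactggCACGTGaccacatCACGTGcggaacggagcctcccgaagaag
Mcoln1, chr8:3500444-3500504, plus strand: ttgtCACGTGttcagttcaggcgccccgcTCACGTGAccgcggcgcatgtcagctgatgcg
Atp6v0d1, chr8:105566051-105566092, minus strand: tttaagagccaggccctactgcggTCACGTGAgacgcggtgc
Atp6v1a, chr16:44139360-44139415, minus strand: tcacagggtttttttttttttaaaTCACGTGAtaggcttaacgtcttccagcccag

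Members with and without CACGTG were set side by side with no test. Of the 11 members with CACGTG, 7 rose in alpha cells and 7 in beta cells, with median log2 fold changes of 0.39 and 0.30. Of the 20 measured members whose window lacks it, 15 rose in each line, with medians of 0.46 and 0.50. Of the members with a rise of at least 2-fold in either line, Gla and Ctsd have it, Cd68, Man2b1, Neu1 and Lipa lack it, and Ctsb has no entry. Of those that fell in alpha cells, Glb1 and Naglu have it, Gabarapl1 lacks it, and Npc1 has no entry. A match of letters is not a bound site, and motifs outside the windows were not searched.

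Across both lines, 20 members rose in each, against 9.07% of all genes, and none fell in both by limma's adjusted p, against 9.04% of all genes, although Npc1 had an unadjusted p of 0.042 for its lower values in beta cells. Scarb2 passed with a rise in alpha cells and a fall in beta cells (1.18% of all genes), and Gabarapl1 the other way round (2.47%). Cd68, Psap and Atp6v1a rose and Glb1, Naglu and Npc1 fell with a call in alpha cells only, and Ctsh, Ppt1, Mcoln1 and Sqstm1 rose with a call in beta cells only. Ctss, Idua, Sgsh and Atp6v1h passed in neither. These calls hold for the probe set used. With p-values adjusted over all probe sets by limma, another probe set passed with a rise in beta cells for Psap (0.14, adjusted p = 0.045) and Atp6v1a (0.20, adjusted p = 0.0080), with a rise in alpha cells for Ppt1 (0.49, adjusted p = 0.00024) and with a fall in alpha cells for Sgsh (-0.31, adjusted p = 0.0022). Across the 36 genes, which are not independent replicates, the log2 fold changes of the lines had a Pearson correlation of 0.30 and a Spearman correlation of 0.58. Over all genes these were 0.38 and 0.41, and both pairs are given as a description.

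**Figure D3:**
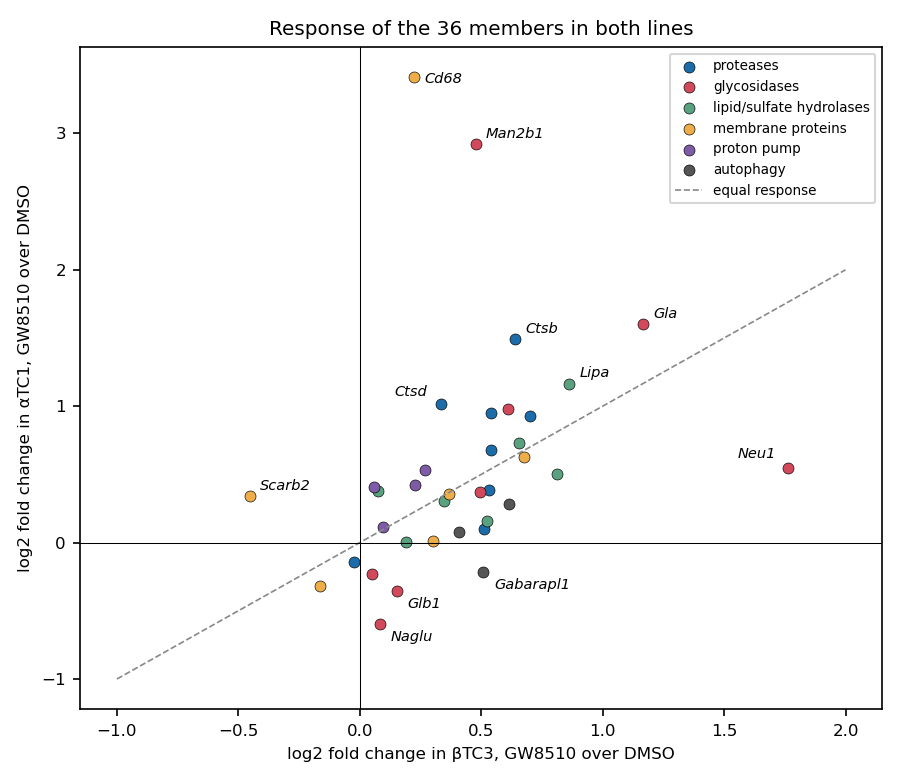
Log2 fold change in αTC1 against that in βTC3 for the 36 measured members, coloured by class, with a dashed line of equal response. Cd68 (3.41 against 0.22) and Man2b1 (2.92 against 0.48) lie far above the line, Neu1 (0.55 against 1.76) far below it, and Gla (1.60 against 1.17) near it.

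The difference of the response between lines was tested by itself, as the fold change in alpha cells minus that in beta cells. It passed for 21 of the 36 members, 12 with the larger value in alpha cells and 9 with the larger value in beta cells. Among all genes, 12.0% passed in the first direction and 16.4% in the second. Of the proteases, Ctsb (0.86 on the log2 scale), Ctsd (0.68), Ctsl (0.41) and Tpp1 (0.23) passed, all with the larger value in alpha cells. Both proton pump genes that passed, Atp6v1a (0.35) and Atp6ap1 (0.26), had it too. The 3 autophagy genes passed with the larger value in beta cells, Gabarapl1 at -0.73 and Sqstm1 and Map1lc3b at -0.33 each. The glycosidases were divided, with Man2b1 (2.44), Gla (0.43) and Gusb (0.37) on one side and Neu1 (-1.22), Naglu (-0.68) and Glb1 (-0.51) on the other. By the other probe sets, the difference was 0.24 and 0.13 for Neu1, -0.20 for Gla and 0.74 for Man2b1, so the signs of Neu1 and Gla did not hold across probe sets.

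With DMSO alone, the lines already differed at most of these genes. Of 36 members, 23 were lower in alpha cells than in beta cells and 7 were higher, where 26.8% of all genes were lower and 28.9% higher. The median log2 difference was -0.35, against 0.05 over all genes. Lower in alpha cells by at least 2-fold were 7 members (7.89% of all genes), namely Gla (-2.96), Ctsb (-1.83), Man2b1 (-1.80), Gusb (-1.62), Glb1 (-1.55), Ctsl (-1.25) and Npc2 (-1.10). Higher in alpha cells were Atp6v1h (0.82), Cd68 (0.67), Gabarapl1 (0.41), Tpp1 (0.32), Neu1 (0.30), Sqstm1 (0.29) and Atp6v1a (0.22). Atp6v1a no longer passed without alpha DMSO replicate 1 (0.19) or beta DMSO replicate 3 (0.18), nor did Atp6v0d1 (-0.18) without beta DMSO replicate 1 or 3 (-0.16 each). The line and all else that differs between these cultures cannot be told apart. For Ctsb, Gla and Man2b1 the dimmest probe sets gave gaps that did not pass, of 0.18 and 0.20 for Ctsb, -0.22 for Gla and 0.03 for Man2b1. The sign thus did not hold across probe sets for Ctsb and Man2b1. A brighter other probe set of Ctsb gave -2.19. Other probe sets gave wider gaps for Scarb2 (-1.62, against -0.10 by the one used), Lamp2 (-1.51 and -1.18, against -0.38), Ppt1 (-1.10, against 0.06) and Gusb (-2.36, against -1.62).

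With GW8510, the gap between treated arrays of the lines stayed wide for Gla (-2.53), narrowed for Ctsb (-0.98) and changed sign for Man2b1 (0.65) and Ctsd (0.22). The change of sign for Man2b1 belongs to the probe set used, since the other gave a gap of 0.03 with DMSO. The group with the highest mean was beta cells with GW8510 for 25 of the 36 members (28.3% of all genes) and alpha cells with GW8510 for 9 (32.6% of all genes). The exceptions were Ctss, highest in alpha DMSO (22.5% of all genes), and Npc1, highest in beta DMSO (16.6%). Averaged over the 36 members, the mean log2 intensity was 9.99 ± 0.02 (SD, n = 3) in alpha DMSO, 10.54 ± 0.003 in alpha GW8510, 10.46 ± 0.01 in beta DMSO and 10.89 ± 0.05 in beta GW8510. The order of treated alpha and untreated beta arrays on this average rested on Cd68, since without it the means were 10.57 ± 0.002 and 10.61 ± 0.01.

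**Figure D4:**
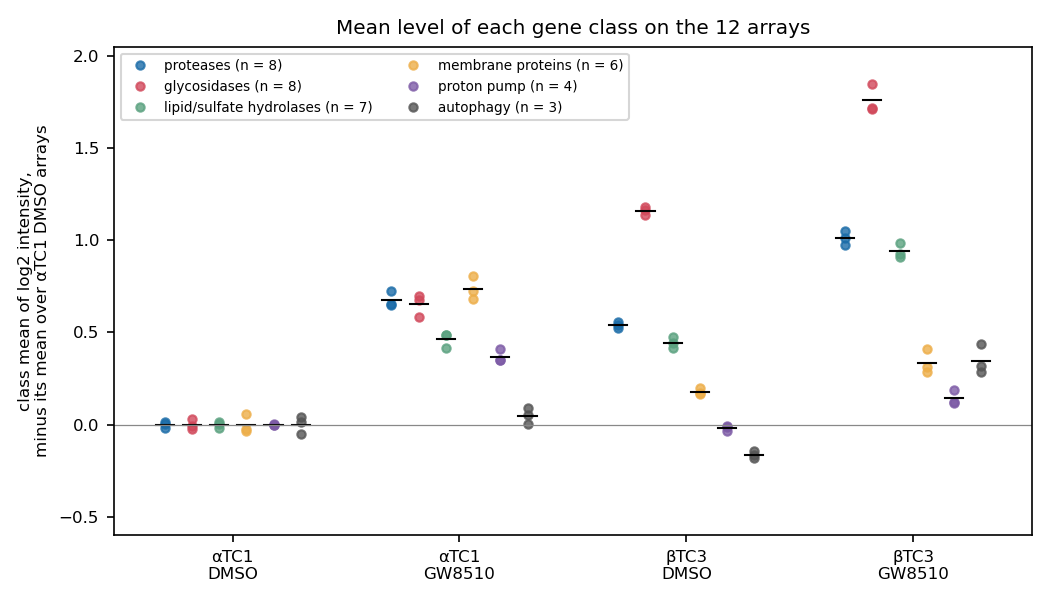
Mean log2 intensity of each class of members on each of the 12 arrays, minus the mean of that class over the alpha DMSO arrays, with a black bar at each group mean. Proteases, glycosidases and lipid or sulfate hydrolases are highest in βTC3 with GW8510, and membrane proteins and the proton pump are highest in αTC1 with GW8510. Without Cd68 the membrane proteins were highest in βTC3 with GW8510 (mean log2 intensity 11.05 against 10.76 in αTC1 with GW8510). Each class has a higher group mean with GW8510 than with DMSO in both lines. For autophagy in αTC1 the arrays overlap (11.37 to 11.46 with DMSO, 11.42 to 11.51 with GW8510).

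Among the alternatives run, the sign of a called value turned only with the choice of probe set. For 19 members the arrays hold 28 further probe sets, of which 22 had the sign of the chosen one in alpha cells and 25 in beta cells. Of the 14 members with other probe sets that rose in alpha cells, 11 rose by every one (Atp6v1a, Ctsb, Ctsz, Gla, Lamp2, Lipa, Man2b1, Npc2, Psap, Scarb2 and Tpp1). In beta cells 9 of 14 did (Ctsz, Gabarapl1, Gla, Lamp2, Lipa, Mcoln1, Npc2, Ppt1 and Tpp1). A different sign was found for Map1lc3b in alpha cells and for Gusb (-0.03 by the other probe set), Map1lc3b and Scarb2 in beta cells. Idua, Sgsh and Mcoln1, which had not passed in alpha cells, also had probe sets on either side of 0 there.

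**Figure D5:**
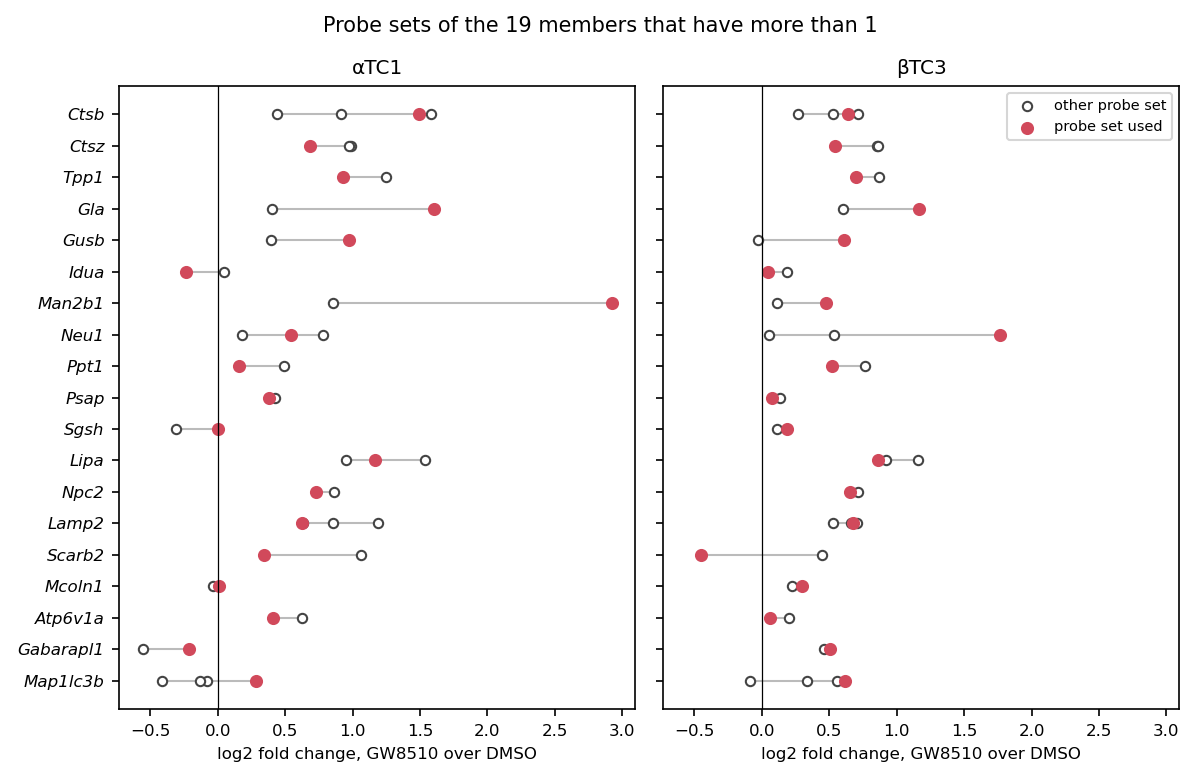
Log2 fold change of GW8510 over DMSO by each probe set of the 19 members that have more than 1, in αTC1 (left) and βTC3 (right), with the probe set used in red and the others as open circles. The widest spreads are those of Man2b1 in αTC1 (0.85 to 2.92) and of Neu1 in βTC3 (0.05 to 1.76).

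Other genes listed for the lysosome and autophagy, 134 measured in lists written from general knowledge, had smaller medians than the members. Members and lists were both chosen with earlier results of these data known, so this difference is a description. In alpha cells 56 rose and 24 fell (median log2 fold change 0.15), and in beta cells 55 rose and 11 fell (median 0.16). Among all genes, 20.2% were higher and 21.2% lower in alpha cells, and 19.7% and 14.3% in beta cells. These shares stand beside the counts of each list below. Other lysosomal membrane proteins rose most often in alpha cells, 15 of 22, led by the nucleic acid transporter Sidt2 (1.42), the Batten disease protein Cln3 (1.20) and Laptm4b (1.02). Of 9 other glycosidases, 6 rose in alpha cells and 5 in beta cells, led in alpha cells by the fucosidase Fuca1 (1.86 in alpha cells, 0.71 in beta cells) and by Galc, which splits galactosylceramide (0.89 and 0.71), and in beta cells by Fuca2 (0.68 and 1.09). Of 14 other hydrolases of lipids, sulfates and phosphates, 7 rose and 3 fell in alpha cells, and 8 rose and 1 fell in beta cells. The list was led by Smpdl3b (2.94 and 0.74) and Gnpda1, a deaminase of glucosamine 6-phosphate (1.69 and 1.37). Neither is an enzyme of the lysosome lumen, so their rises are not read as lysosome responses. Next in alpha cells was Hgsnat (1.31 and 0.27). The falls were those of Sumf1 (-0.47), Acp2 (-0.44) and Dnase2a (-0.34) in alpha cells and of Dnase2a (-0.35) in beta cells. Of 18 other pump subunits, 10 rose and 3 fell in alpha cells, and 9 rose and 2 fell in beta cells. Atp6v1g2 (-0.93 and -0.59) and Atp6v0e2 (-0.41 and -0.32) fell in both, and Atp6v1c1 (-0.23) fell in alpha cells.

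Of 8 other proteases, 2 rose (against 20.2% of all genes) and 3 fell (against 21.2%) in alpha cells. Of the same 8, 1 rose (against 19.7%) and 2 fell (against 14.3%) in beta cells. The largest fall was that of Cpq (-1.62 in alpha cells, -1.32 in beta cells). Of 29 other autophagy genes, 2 rose (Ulk1 at 0.77 and Gabarap at 0.26) and 10 fell in alpha cells, against 20.2% and 21.2% of all genes. In beta cells 6 rose (20.7%, against 19.7% of all genes) and 4 fell (against 14.3% of all genes). Atg10, an enzyme that attaches Atg12 to Atg5, fell in both (-2.01 and -1.60), and the mitophagy receptor Bnip3 went in opposite directions (-1.65 and 1.22). Of 19 genes of delivery to the lysosome, 8 rose and 4 fell in alpha cells, and 9 rose and 1 fell in beta cells. Among those that rose were Igf2r, a mannose 6-phosphate receptor (0.97 and 0.56), and the adaptor Gga2 (1.00 in alpha cells). Lyst fell in both lines (-0.50 and -0.48), and Sort1 (-0.44) and Gga1 (-0.40) fell in alpha cells. Of 15 regulators, 6 rose and 1 fell in each line. Flcn (0.66 and 0.33) and Rragc (0.42 and 0.48), which act in nutrient signalling at the lysosome, rose in both lines. Zkscan3 fell in alpha cells (-0.29). Mitf, a factor related to TFEB, fell in beta cells (-0.49). Tfeb itself, named after its values were seen, had log2 fold changes of 0.09 (limma, adjusted p = 0.47) and -0.0046 (adjusted p = 0.98), and RNA level does not show its activity.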

How the data were processed

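RNA from 12 cultures was read on Affymetrix Mouse Genome 430A arrays. The authors' deposited table holds linear intensities for 22690 probe sets, and the submitters' processing notes name RMA without a version. Values stop at 20 and 20000, bounds taken to be the authors'. Groups follow titles and characteristics, since some source names carry a compound number that runs on by 1 per replicate.

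Intensities were converted to log2 without a pseudocount. Controls (64 probe sets), probe sets with several symbols (691) or none (1555) and those at a bound on all arrays (330) were left out, and the probe set with the highest mean was kept for each of 12255 genes. Symbols came from the platform annotation and RefSeq. All 12 arrays were fitted with limma 3.58.1 in R 4.3.3 (4 group means, contrasts, empirical Bayes, Benjamini-Hochberg over all genes). The prior added 3.52 degrees of freedom to 8, the median standard error was 0.08, and the number of arrays limits the precision. The script was tested on simulated data.

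Members and lists were chosen with earlier results of these data known. Every member is named, and all 12 values are given for members called with at least a 2-fold change, called in opposite directions, or largest in their class. From each list of other genes, at most the 3 largest called rises and falls per line may be named. Arrays with the same replicate number showed no shared deviation within a line (correlations of deviations between -0.13 and 0.08), and the main fit did not pair them. The study calls its DMSO controls matched, and whether cultures were handled in pairs cannot be told from these values. The replicate block gave arrays with the same number in both lines a shared term. Alternatives were other normalizations, probe set rules, a filter on the dimmest 25% of genes, another prior for the spread, weights per array, 1 or 16 added before the log, a replicate block, only the 6 arrays compared, and each array left out. Means without Cd68 and a sum without C1qa were added after seeing the data.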

Additional observations from a re-analysis of the deposited data

Results flagged for a closer look

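For 21 members the response to GW8510 differed between the lines by limma's test of the difference, given as the log2 fold change in alpha cells minus that in beta cells. Larger values in alpha cells were found for Cd68 (3.19), Man2b1 (2.44), Ctsb (0.86), Scarb2 (0.79), Ctsd (0.68), Gla (0.43), Ctsl (0.41), Gusb (0.37), Atp6v1a (0.35), Psap (0.31), Atp6ap1 (0.26) and Tpp1 (0.23). Larger values in beta cells were found for Neu1 (-1.22), Gabarapl1 (-0.73), Naglu (-0.68), Glb1 (-0.51), Ppt1 (-0.37), Sqstm1 (-0.33), Map1lc3b (-0.33), Asah1 (-0.31) and Mcoln1 (-0.29). Of these, 15 passed under every alternative run, and Tpp1, Gla, Glb1, Mcoln1, Atp6v1a and Atp6ap1 did not. Among the members with other probe sets, every probe set of Atp6v1a, Man2b1, Psap, Scarb2 and Tpp1, and of Gabarapl1, Map1lc3b and Mcoln1, passed in the direction given. Gla lost its call with the mean of its probe sets (0.12). Neu1 kept its call by that mean (-0.28), but its 2 other probe sets had the opposite sign (0.24 and 0.13). Tpp1 lost it when any of 8 arrays was left out, namely alpha DMSO replicate 2 (0.20) or 3 (0.21), alpha GW8510 replicate 2 (0.23) or 3 (0.22), beta DMSO replicate 1 (0.23), 2 (0.24) or 3 (0.22), or beta GW8510 replicate 2 (0.22). Under the replicate block, Tpp1 (0.23) and Mcoln1 (-0.29) lost it. Mcoln1 also lost it with quantile normalization (-0.22), with each array centred on its median (-0.25), and without alpha DMSO replicate 1 (-0.26) or 2 (-0.27), alpha GW8510 replicate 1 (-0.24) or 2 (-0.31), beta DMSO replicate 1 (-0.29) or 2 (-0.26), or beta GW8510 replicate 1 (-0.30) or 3 (-0.26). Glb1 lost it without alpha DMSO replicate 1 (-0.46) or 3 (-0.52), beta DMSO replicate 2 (-0.50) or 3 (-0.48), or beta GW8510 replicate 3 (-0.44). Atp6v1a lost it without beta DMSO replicate 2 (0.30), and Atp6ap1 without alpha DMSO replicate 1 (0.25), beta DMSO replicate 3 (0.24) or beta GW8510 replicate 2 (0.25).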

How the results depend on the processing

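Across the alternatives, the number of members higher in either line, lower in alpha cells, and different between lines or at baseline stayed within 1.5 times the value reported. Only the count of members lower in beta cells (1, Scarb2) moved further. It was 2 with quantile normalization, with each array centred on its median and with array weights, where Npc1 joined it, and 0 with the mean of a gene's probe sets. Leaving out 1 array in turn gave 24 to 25 members higher and 3 to 4 lower in alpha cells, 25 higher and 1 lower in beta cells, 10 to 13 and 7 to 9 for the difference, and 6 to 8 higher and 22 to 24 lower at baseline. Under the replicate block the counts were 24 and 4 in alpha cells, 26 and 1 in beta cells, 11 and 8 for the difference, and 7 and 23 at baseline, although the numbers did not pair the arrays.

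Calls of 25 of 28 members in alpha cells, 24 of 26 in beta cells and 25 of 30 at baseline passed in the same direction under every alternative. Ppt1 in alpha cells, which did not pass, passed under 9 of 23 alternatives (0.15 to 0.32 there). Under the replicate block, Tpp1 and Mcoln1 lost their calls for the difference and Cd68 in beta cells gained one. Signs of called values turned only with the choice of probe set. With the mean of the probe sets, Map1lc3b in alpha cells, and with it the autophagy median, went to -0.086, and Map1lc3b at baseline to 0.21. Ppt1 at baseline, which had not passed, went to -0.52 by that mean. With probe sets of the plain design preferred, Map1lc3b in alpha cells and the autophagy median went to -0.13, and the baselines of Man2b1 and Map1lc3b to 0.029 and 0.47. The difference of Lamp2, which had not passed, went to 0.32 by that rule. The cause was not tested. Dim members (Ctsh, Ctss and Cd68 in beta cells) are limited by signal near the floor.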
